A study of Mus musculus with 4 samples.

Results

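The nuclear genes for complexes I, II, III and V of oxidative phosphorylation (OXPHOS) were followed in brain microglia of mice with and without a deletion of Prmt1, the gene of a protein arginine methyltransferase. Members were chosen by symbol: every gene that starts with Ndufa, Ndufb, Ndufc, Ndufs, Ndufv, Uqcr or Atp5, together with Sdha, Sdhb, Sdhc and Sdhd, leaving out the Ndufaf assembly factors and pseudogene symbols. This gave 67 members among the 32285 genes of the feature tables. They comprised 36 genes of complex I, 4 of complex II, 8 of complex III, 17 of complex V and the pair Ndufa4 and Ndufa4l2. Cyc1 and the mitochondrially encoded subunits belong to these complexes but not to the members.

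The respiratory chain sits in the inner mitochondrial membrane. Complexes I and II pass electrons from NADH and succinate to ubiquinone, complex III passes them on towards complex IV, and complex V, the ATP synthase, uses the proton gradient that complexes I, III and IV build to make ATP. Most subunits are encoded in the nucleus, all 4 of complex II among them, whereas the mitochondrial genome supplies a few hydrophobic subunits of the other complexes. Microglia, the resident macrophages of the brain, use both OXPHOS and glycolysis, and their balance is known to change with activation.

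PRMT1FL mice carried floxed Prmt1 alleles and are labelled as wild type. PRMT1Cx3cr1-KO mice carried the same alleles with the Cx3cr1-CreERT driver, a tamoxifen-inducible recombinase made in cells that express Cx3cr1. There were 2 mice per genotype on the C57BL/6 background, both genotypes received a 0.2% cuprizone diet for 5 wk, and brain cells sorted for CD45 and CD11b gave 1 library per mouse. Cuprizone is a copper chelator that kills oligodendrocytes and strips myelin. The study's methods describe tamoxifen injection of mice 5 to 6 wk old before the diet, and the labels give 5 to 6 wk as the age at the diet. Since only PRMT1Cx3cr1-KO mice carried the driver, driver and deletion cannot be told apart. The driver is placed in the Cx3cr1 gene, and Cx3cr1 itself fell by 0.90 on the log2 scale (adjusted p = 0.0237 by edgeR).

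Libraries held 76943248 to 99559644 unique molecular identifiers (UMIs, tags that count each captured RNA molecule once). After limits on genes and mitochondrial UMIs, 39597 cells fell into microglial clusters, 7809 to 10974 per mouse, with 72853200 to 93392241 UMIs per mouse and medians of 6231 to 7067 UMIs per cell. Between 31 and 46 cell barcodes were shared by any pair of libraries. Prmt1 was at 93.3 and 86.2 CPM (UMI counts scaled to a common library total, as in edgeR) in PRMT1FL and at 69.8 and 67.6 CPM in PRMT1Cx3cr1-KO microglia, a log2 fold change of -0.39 (standard error, SE, 0.07, adjusted p = 0.0771 by edgeR). The files count molecules by gene, which leaves intact and recombined transcripts unseparated. Haemoglobin genes, markers of erythrocytes, were called lower in PRMT1Cx3cr1-KO for 4 of 4 genes, from 93.8 to 240.7 CPM in sum to at most 0.0614 CPM.

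The members lie on 19 chromosomes, and gene positions below are those of GENCODE M21 on the mouse build GRCm38. Promoters of 55 of them were listed by RefSeq, and the palindromic core of the site of nuclear respiratory factor 1 (NRF1) was found on either strand in the 250 bases upstream of 3 of these, or 5.45%, against 0.877% of 27025 genes. The 3 windows are shown because NRF1 is a known regulator of nuclear OXPHOS genes. Capitals spell out the palindrome searched for, which stood between 60 and 33 bases before the gene start given by RefSeq. The build is GRCm38 and each sequence is given on the gene's own strand.
Ndufa11, chr17:56717692-56717721, plus strand: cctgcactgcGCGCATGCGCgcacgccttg
Atp5g2, chr15:102671070-102671099, minus strand: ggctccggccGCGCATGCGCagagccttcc
Atp5k, chr5:108434430-108434459, minus strand: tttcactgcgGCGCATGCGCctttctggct
The windows of Atp5g2 and Atp5k overlap an annotated exon on the same strand, and that of Ndufa11 overlaps none. By the GENCODE positions, the Atp5g2 window lies inside the gene and the Atp5k window spans the gene's start, so neither is wholly upstream there. The shorter form GCATGCGC, which every such palindrome contains, stood upstream of 7 members (12.7%, against 2.56% of genes): these 3 and Atp5l, Ndufa6, Ndufa8 and Sdhb. AAGATGGCG, a site of YY1, was upstream of Atp5j only (1.82%, against 0.710%), and CCGGAAGT, a site of ETS factors such as GABPA, was upstream of Atp5h, Uqcr11 and Uqcrh (5.45%, against 3.23%). TATAAA was upstream of 6 members (10.9%, against 14.3%). The upstream bases had a median GC content of 57.6% over the members and 52.8% over all genes, taking the highest promoter of each gene. The part of this in the matches was not tested. A match of letters does not show binding.

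Between genotypes, UMIs were summed per mouse over the microglia, which asks whether the members' transcripts differed in level between PRMT1Cx3cr1-KO and PRMT1FL mice. The filter on low counts kept 66 of the 67 members. No member passed an adjusted p of 0.05 by edgeR, in a fit that called 0.463% of the 13828 genes tested, and DESeq2 called no member either. At an unadjusted p under 0.05 there were 7 of 66 members, all higher in PRMT1Cx3cr1-KO, and 2744 of the 13828 genes, 1398 of them higher, so the members did not pass it more often than genes at large. The median log2 fold change over the members was 0.08, beside -0.004 over all genes, and 52 of 66 members had a positive value. In 28 members (42.4%) both PRMT1Cx3cr1-KO mice lay above both PRMT1FL mice, against 26.1% of all genes. The reverse held for Ndufa6 and Atp5mpl, 3.03% of members, against 27.7% of all genes. These figures describe the list, since its members share cells, libraries and scaling.

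**Figure D1:**
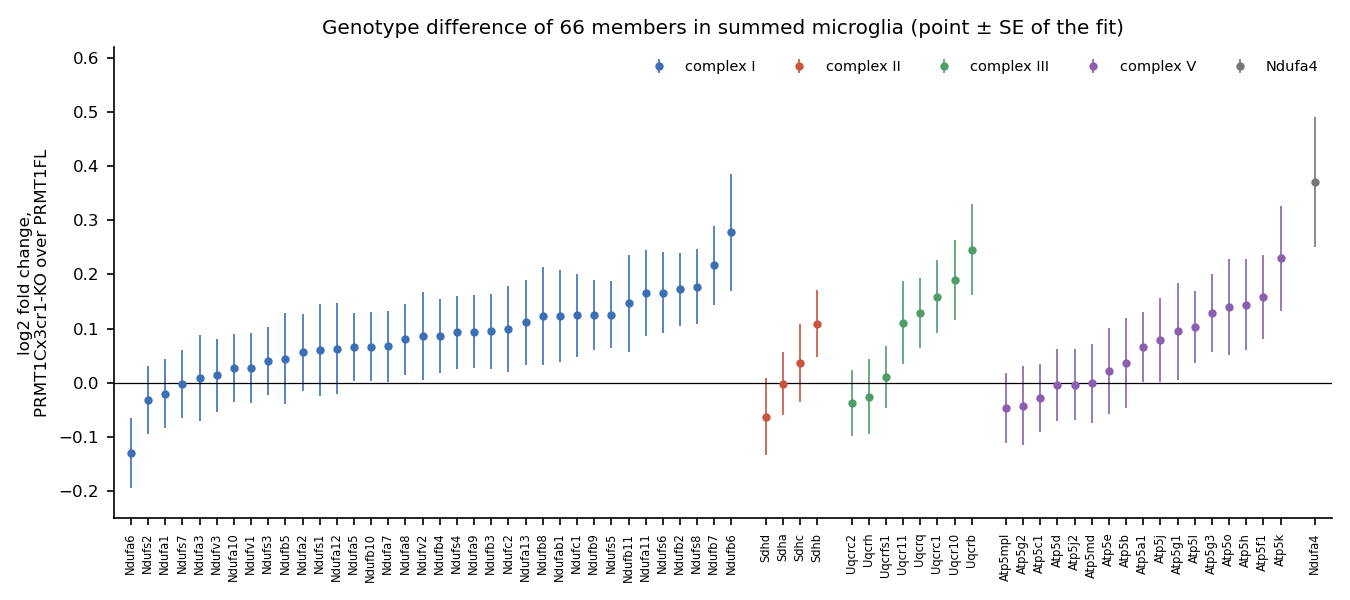
Log2 fold change of PRMT1Cx3cr1-KO over PRMT1FL (vertical axis) for the 66 members tested, ordered within each complex, with the point from edgeR and bars of 1 SE. All members but Ndufa4, which is highest at 0.37, lie between -0.13 (Ndufa6) and 0.28 (Ndufb6), and no member passed an adjusted p of 0.05.

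In complex I, 32 of 36 genes had a positive value and the median was 0.09. The 7 core genes, which carry the flavin, the iron-sulphur clusters or the quinone site, had a median of 0.04, and the 29 accessory genes 0.09. Ndufb7, an accessory subunit of the membrane arm, was at 177 and 183 CPM in PRMT1FL and at 199 and 219 CPM in PRMT1Cx3cr1-KO mice. The groups of Ndufb7 did not overlap, and its log2 fold change was 0.22 (SE 0.07, adjusted p = 0.188 by edgeR). Ndufb6, another membrane-arm subunit, was at 61.8 and 66.01 against 69.1 and 85.7 CPM (0.28, SE 0.11, adjusted p = 0.235). Ndufs8, a core subunit with iron-sulphur clusters, was at 105 and 108 against 115 and 126 CPM (0.18, SE 0.07, adjusted p = 0.235). In these genes PRMT1Cx3cr1-KO mouse 2 held the highest value and PRMT1Cx3cr1-KO mouse 1 stood closer to the controls. Ndufa2, the complex I member with the most UMIs, was at 454 and 423 against 456 and 456 CPM, so that 1 control lay level with the PRMT1Cx3cr1-KO mice. Ndufa1 (ENSMUSG00000016427, chrX:37187588-37191163), a small accessory subunit that the study lists for its A1 and A2 clusters, was at 306 and 297 against 294 and 300 CPM, with overlapping groups. Ndufc1, listed for the same clusters, was at 207 and 190 against 208 and 226 CPM (0.12, SE 0.08, adjusted p = 0.416 by edgeR).

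In complex II the median was 0.02. Sdhb, its iron-sulphur subunit, was at 144 and 146 CPM in PRMT1FL and at 152 and 160 CPM in PRMT1Cx3cr1-KO mice (log2 fold change 0.11, SE 0.06, adjusted p = 0.380 by edgeR). Sdha, the flavoprotein, was at 66.4 and 65.9 against 64.8 and 67.4 CPM. Of the membrane anchors, Sdhc was at 65.1 and 64.7 against 62.9 and 70.2 CPM and Sdhd at 59.8 and 64.5 against 57.3 and 61.7 CPM. Only the groups of Sdhb lay apart.

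In complex III the median was 0.12, the highest of the 4 complexes, with 6 of 8 genes positive. Uqcrb, which takes part in quinone binding, was at 209 and 232 CPM in PRMT1FL and at 249 and 275 CPM in PRMT1Cx3cr1-KO mice (log2 fold change 0.25, SE 0.08, adjusted p = 0.195 by edgeR). Uqcr10 was at 307 and 293 against 327 and 357 CPM (0.19, SE 0.07, adjusted p = 0.236), and Uqcrc1, a core protein on the matrix side, at 110 and 105 against 115 and 125 CPM (0.16, SE 0.07, adjusted p = 0.262). In each of these the groups lay apart. Uqcrh, the hinge subunit and the complex III member with the most UMIs, was at 499 and 528 against 507 and 501 CPM, within the spread of the controls.

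In complex V the median was 0.07, with 0.02 over the 5 genes of F1, the catalytic head with its central stalk, and 0.10 over the 9 genes of the peripheral stalk and membrane part. Atp5k, a subunit at the dimer interface, was at 375 and 329 CPM in PRMT1FL and at 388 and 437 CPM in PRMT1Cx3cr1-KO mice (log2 fold change 0.23, SE 0.10, adjusted p = 0.262 by edgeR). Atp5f1, of the peripheral stalk, was at 213 and 214 against 224 and 252 CPM (0.16, SE 0.08, adjusted p = 0.319). Atp5e, of the central stalk, was at 1028 and 935 against 996 and 996 CPM, between the controls. The c ring, which turns as protons pass, is encoded by 3 paralogs for the same mature peptide, Atp5g1 (chr11:96068852-96075670), Atp5g2 (chr15:102662864-102672352) and Atp5g3 (chr2:73908447-73911326). Atp5g1 was at 227 and 245 against 234 and 269 CPM, Atp5g2 at 681 and 726 against 690 and 676 CPM, and Atp5g3 at 121 and 127 against 129 and 142 CPM (0.13, SE 0.07, adjusted p = 0.375). Only Atp5g3 had groups that lay apart, and the paralogs are taken as counted, since the assignment of reads from alike stretches is not given in the sources used here.

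Ndufa4 (chr6:11900292-11907497), first described in complex I and now counted with complex IV, had the largest log2 fold change among the members. It was at 211 and 243 CPM in PRMT1FL and at 263 and 324 CPM in PRMT1Cx3cr1-KO mice (0.37, SE 0.12, adjusted p = 0.174 by edgeR). Ndufa4l2, its paralog, known to be induced by low oxygen, was seen with 7 and 3 molecules in PRMT1FL microglia and 5 and 4 in PRMT1Cx3cr1-KO microglia, too few to be tested. With all sorted cells summed instead of microglia, Ndufa4l2 was tested and called lower (log2 fold change -1.69, adjusted p = 0.0291 by edgeR), among 749 of 14757 genes called. The cells added there include a cluster with astrocyte and endothelial markers, of 228 and 149 cells in PRMT1FL and 60 and 30 cells in PRMT1Cx3cr1-KO mice, and its part in the call was not tested.

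The result leaned on PRMT1Cx3cr1-KO mouse 2. Without PRMT1Cx3cr1-KO mouse 1, 13 members were called higher by edgeR, among 2482 of 14216 genes called, and the median was 0.14. Without PRMT1Cx3cr1-KO mouse 2 no member was called and the median was 0.03. With no filter on low counts, edgeR called Ndufa4, Ndufb6 and Uqcrb higher, among 1631 of 20092 genes called, and with plain library sums in place of scaling factors the median was 0.16, beside 0.07 over all genes.

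As a share of all microglial UMIs, the 67 members took 1.39 and 1.39% in PRMT1FL and 1.47 and 1.62% in PRMT1Cx3cr1-KO mice, a ratio of 1.11. On these plain UMI totals the order held in each complex, at a ratio of 1.11 for complex I, 1.09 for complex II, 1.13 for complex III and 1.09 for complex V. Plain totals also raise the median over all genes, as given above, so these ratios include that shift. With edgeR's scaling factors the median log2 fold change of complex II was 0.02, and 1 of its 4 genes had groups that lay apart. With 2 mice against 2 no exact 2-sided permutation test can fall below p = 0.333. Beside this, cytosolic ribosomal protein genes took 21.8 and 21.1% in PRMT1FL and 20.8 and 19.4% in PRMT1Cx3cr1-KO mice, and mitochondrially encoded genes 2.03 and 2.07% against 2.04 and 1.99%. Markers of border macrophages summed to 20.2 and 20.8 CPM in PRMT1FL and to 37.4 and 100.5 CPM in PRMT1Cx3cr1-KO microglia, so that they too were highest in PRMT1Cx3cr1-KO mouse 2. Neutrophil markers summed to 5.83 and 63.4 CPM in PRMT1FL and to 0.687 and 88.7 CPM in PRMT1Cx3cr1-KO microglia. Stress and dissociation genes summed to 6507 and 6043 CPM in PRMT1FL and to 7543 and 5263 CPM in PRMT1Cx3cr1-KO microglia. The part of these in the members' share was not tested. With mitochondrially encoded and ribosomal protein genes left out of the total the ratio was 1.09, and with equal numbers of cells per cluster from each mouse it was 1.11. Sums over all microglia alone do not separate a shift in cell makeup from a shift in level per cell. The draw of equal cell numbers holds the makeup by cluster fixed, and genotype is compared within states below.

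Microglia were then grouped by expression into 7 states with at least 50 cells in every mouse. A further microglial cluster, B1-like, had 19 and 7 cells in PRMT1FL and 54 and 361 cells in PRMT1Cx3cr1-KO mice. It was too small to be described but stayed in the microglial sums and among the other microglia. In PRMT1Cx3cr1-KO mouse 2 it made up 3.39% of microglia, and its own part in the genotype differences was not tested. No member was used for the grouping, and 1534 genes picked from the genotype comparison were left out too. Those genes were chosen in sums over all cells by edgeR's adjusted p or by the size of the log2 fold change alone. Not all of them were therefore called between genotypes. States were named either from marker genes or from genes that led the cluster. D/E-like cells (8211) had 9 of 11 markers of the study's clusters D and E higher in every mouse. These markers mix homeostatic genes with Tnfaip2 and Nfkbia, which the study calls pro-inflammatory. The study keeps D and E apart, with D lost and E gained in PRMT1Cx3cr1-KO microglia. Whether both genotypes hold the same mix of D and E cells here was not tested. The Il1b/Cxcl2 cluster (8583 cells) was led by Il12b, Cxcl2 and Ptgs2, the Gpnmb/Itgax cluster (11946 cells) by Gpnmb, and the Cox6a2/Rps26 cluster (6629 cells) by Ccl6, Tmsb10 and Rps26. Although named from leading genes, the Gpnmb/Itgax cluster had 10 of 10 markers of the study's phagocytic B2 cluster higher in every mouse. The Il1b/Cxcl2 cluster had 7 of these 10. It also had 12 of 19 markers of clusters C1 and C2, which the study calls MHC-associated, the most among the 7 states. Both A1-like clusters, 1841 cells led by Mki67 and 1082 led by Ube2c, held all 7 proliferation markers of A1, and 864 interferon-like cells held all 7 interferon markers. The interferon-like cells also had 9 of the 19 C1 and C2 markers higher in every mouse. For each mouse, the CPM of a state, here on plain UMI totals, was divided by the CPM of the other microglia and taken to log2. Since cells were sorted into states by their expression, state differences are described without a test. The study itself noted OXPHOS genes in its A clusters, on these same libraries, so their direction here is not independent evidence of it.

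**Figure D2:**
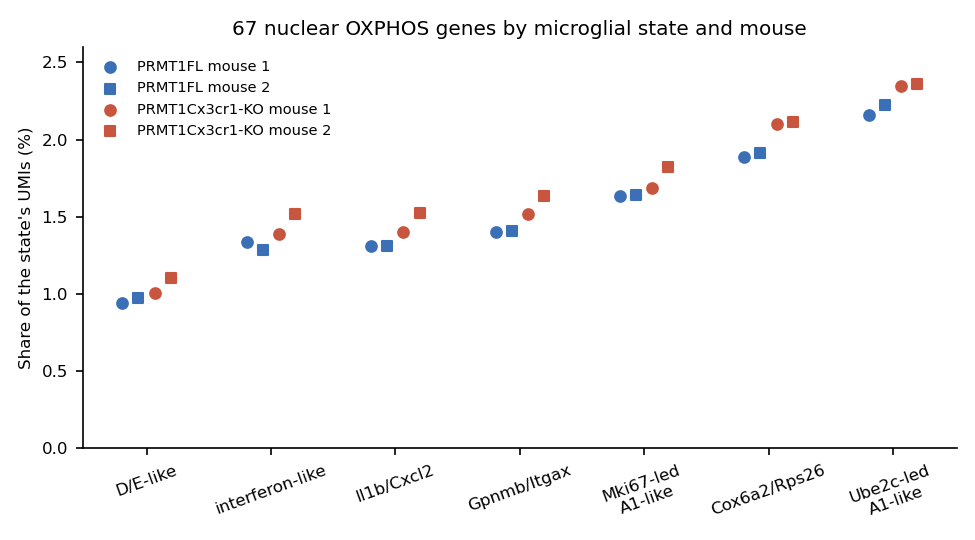
Share of a state's UMIs taken by the 67 members (vertical axis, percent, from 0) in 7 microglial states, with 1 point per mouse, circles and squares for mice 1 and 2. Shares run from 0.943% in D/E-like cells of PRMT1FL mouse 1 to 2.36% in the Ube2c-led A1-like cells of PRMT1Cx3cr1-KO mouse 2, and both PRMT1Cx3cr1-KO mice lie above both PRMT1FL mice in each state.

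The states parted the members far more than genotype did. In PRMT1FL mice the members took 0.943 and 0.972% of UMIs in D/E-like cells, and in PRMT1Cx3cr1-KO mice 1.01 and 1.101%. In the Cox6a2/Rps26 cluster they took 1.89 and 1.91% and then 2.10 and 2.11%, and in the Ube2c-led A1-like cells 2.16 and 2.23% and then 2.35 and 2.36%. The lowest share of the Ube2c-led cells lay above the highest share of every other state, and the highest share of the D/E-like cells below the lowest of every other. Of 66 members, 56 had their highest mean level in the Ube2c-led cells and 8 in the Cox6a2/Rps26 cluster, and 59 had their lowest in the D/E-like cells. The fold from a member's lowest to its highest state had a median of 2.17, from 1.23 for Uqcrc2 to 3.43 for Uqcr10.

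**Figure D3:**
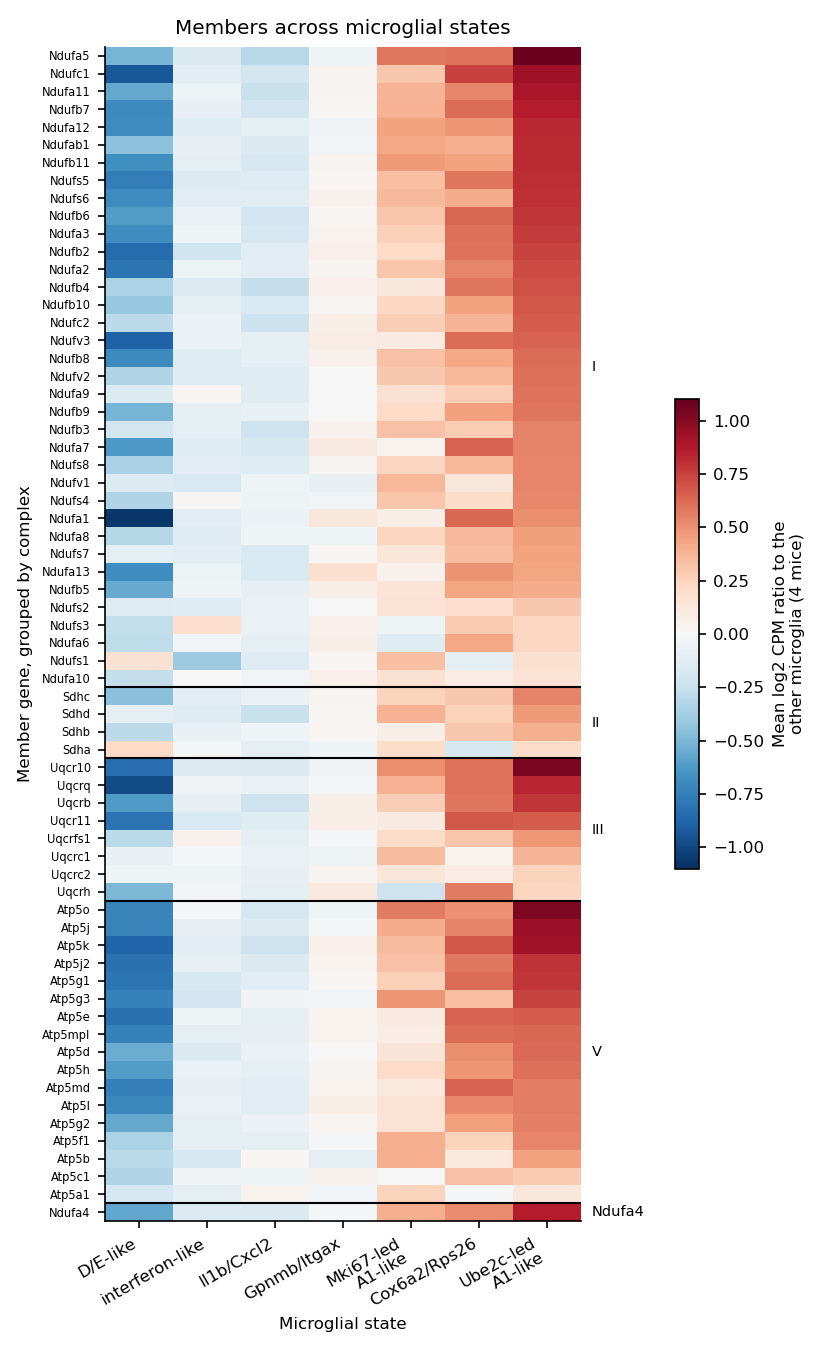
Mean log2 CPM ratio of a state to the other microglia over 4 mice (colour, red higher, blue lower) for 66 members (rows, by complex) in 7 states (columns). The D/E-like column is blue in nearly every row, with Sdha (0.22) and Ndufs1 (0.17) as red exceptions that turn negative with edgeR's scaling factors, and the Ube2c-led and Cox6a2/Rps26 columns are red in nearly every row.

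In D/E-like cells 61 of 66 members were lower than in the other microglia in all 4 mice, against 21.2% of all genes, and the median log2 ratio was -0.56, beside 0.33 over all genes. Only 1 member was higher in all 4 mice, against 62.6% of genes. Ndufa1 was at 132, 133, 159 and 188 CPM (PRMT1FL mice 1 and 2, then PRMT1Cx3cr1-KO mice 1 and 2, as in the lists of 4 values that follow), beside a mean of 319 CPM in the other microglia, and had the lowest log2 ratio of any member (-1.07). Uqcrq, a complex III subunit near cytochrome b, was at 213, 203, 248 and 281 CPM beside 466 CPM (-0.99). Accessory genes stood lower than core genes of complex I, at medians of -0.62 and -0.15. Likewise the peripheral stalk and membrane part of complex V stood at -0.73 and F1 at -0.33. Sdha was the member that was higher, at 74.9, 71.4, 77.7 and 78.6 CPM beside 64.9 CPM (0.22), while Uqcrc2, at 92.4, 88.2, 89.0 and 91.1 CPM beside 93.5 CPM (-0.05), hardly moved. With edgeR's scaling factors in place of plain totals, no member had a positive mean ratio in D/E-like cells, Sdha and Ndufs1 included.

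In the Cox6a2/Rps26 cluster 61 of 66 members were higher in all 4 mice, against 20.3% of genes, with a median of 0.45 beside -0.40 over all genes. Ndufc1, an accessory subunit of the membrane arm, was at 313, 296, 364 and 350 CPM beside 196 CPM in the other microglia (0.75). Uqcr11, a small complex III subunit, was at 563, 525, 652 and 626 CPM beside 367 CPM (0.69). Both were higher in each of the 4 mice. Core genes of complex I were again nearer to no change than accessory genes, at 0.29 and 0.49, and Sdha and Ndufs1 were lower, at -0.17 and -0.10. Ndufs1, a core subunit with iron-sulphur clusters, was at 18.9, 19.4, 19.998 and 24.1 CPM beside 22.0 CPM. With edgeR's scaling factors all 66 members had a positive mean ratio in this cluster.

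In the Ube2c-led A1-like cells 64 of 66 members were higher in all 4 mice, against 27.1% of genes, and none was lower in all 4. Their median of 0.60 stood beside -0.21 over all genes. Ndufa5, an accessory subunit of the matrix arm, was at 201, 227, 237 and 195 CPM beside 101 CPM (1.08), and Uqcr10, on the outer side of complex III, at 588, 625, 702 and 675 CPM beside 316 CPM (1.04). Uqcr10 and Ndufa5 had the highest ratios of the members there. Atp5a1, a catalytic-head subunit, moved little, at 251, 244, 258 and 288 CPM beside 238 CPM (0.13).

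The Mki67-led A1-like cells held the same 7 proliferation markers, yet their members were raised less. There 59 of 66 members were higher in all 4 mice, against 46.3% of genes, at a median of 0.25 beside 0.09. Ndufa5 was at 148, 148, 142 and 156 CPM beside 99.4 CPM (0.58) and Atp5o, which links the stalk to the head, at 205, 231, 222 and 250 CPM beside 153 CPM (0.57). Uqcrh went the other way, at 423, 417, 443 and 472 CPM beside 515 CPM (-0.23), as did Ndufa6 at 191, 184, 185 and 179 CPM beside 203 CPM (-0.13). Both were nevertheless higher in the Ube2c-led cells, at 0.24 and 0.23.

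The other 3 states stood close to the rest. In the Il1b/Cxcl2 cluster 61 of 66 members were lower in all 4 mice, against 47.7% of genes, and 1 was higher, against 17.4%, but the median was only -0.11 beside -0.07, and with edgeR's scaling factors 23 members had a positive mean ratio. Ndufa5 (-0.31) and Ndufb4 (-0.26) were lowest, Atp5a1 was the only member higher (0.03), and Atp5g3 was at -0.04. In the interferon-like cells 41 of 66 members (62.1%) were lower, against 27.9% of genes, and 1 (1.52%) was higher, against 14.5%. Their median was -0.10 beside -0.07. The member higher there was Ndufs3, a core subunit, at 118, 111, 114 and 117 CPM beside 101 CPM (0.19), and Ndufs1 was lowest, at 14.5, 16.6, 14.7 and 21.3 CPM beside 22.0 CPM (-0.40), ahead of Ndufb2 (-0.22). In the Gpnmb/Itgax cluster 25 of 66 members (37.9%) were higher, against 25.2% of genes, and 11 (16.7%) lower, against 31.8%, around a median of 0.02. Ndufa13 (0.18) and Ndufa1 (0.12) were highest, and Atp5b (-0.10) and Ndufv1 (-0.09) lowest. Ndufa13 overlaps Yjefn3 on the same strand, so reads of that stretch could come from either gene.

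The c ring shows the order of states within a single subunit. Atp5g2 rose from 456, 510, 491 and 489 CPM in D/E-like cells over 890, 946, 926 and 906 CPM in the Cox6a2/Rps26 cluster to 983, 1047, 1022 and 1001 CPM in the Ube2c-led cells. Atp5g1 went from 135, 152, 144 and 156 CPM over 325, 353, 369 and 380 CPM to 361, 414, 432 and 455 CPM. Atp5g3 went from 67.7, 81.6, 84.7 and 92.0 CPM over 139, 156, 167 and 179 CPM to 175, 228, 226 and 237 CPM. All 3 paralogs were thus lowest in D/E-like and highest in Ube2c-led cells, though the values of Atp5g1 and Atp5g3 in Cox6a2/Rps26 and Ube2c-led cells overlap between mice. Atp5g3 had its second highest level in the Mki67-led cells, at 152, 178, 178 and 198 CPM. Ndufa4 followed the same course, from 144, 177, 185 and 219 CPM in D/E-like to 370, 471, 488 and 541 CPM in Ube2c-led cells.

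**Figure D4:**
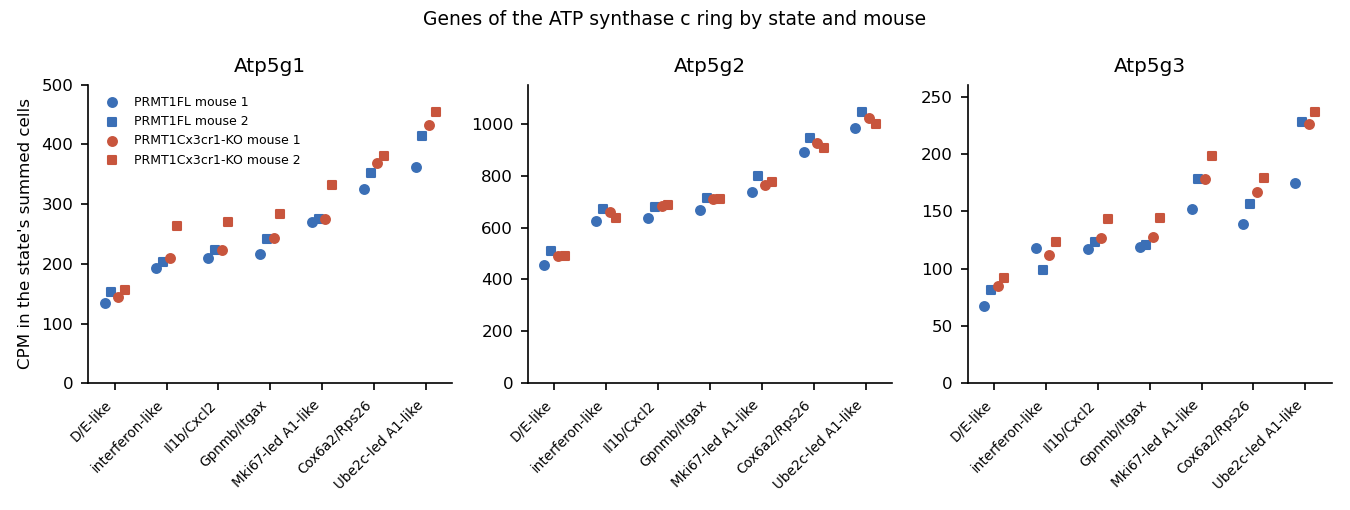
CPM of Atp5g1, Atp5g2 and Atp5g3 (vertical axes from 0, a scale for each gene) in the summed cells of 7 microglial states, with 1 point per mouse. Every mouse has its lowest value of each gene in D/E-like cells, and Atp5g2 reaches 983 to 1047 CPM in the Ube2c-led A1-like cells.

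Read against the median of all genes, which the scaling sets, the members' median stood at -0.89 in D/E-like, 0.86 in Cox6a2/Rps26, 0.82 in Ube2c-led and 0.16 in Mki67-led cells. Several other measures moved with the states. Median depth was 3665 UMIs in D/E-like, 4313 in Cox6a2/Rps26 and 4653 in Ube2c-led cells, but 13065 in Mki67-led cells. Marked doublets made up 21.6% of Mki67-led, 14.2% of Il1b/Cxcl2, 8.99% of Gpnmb/Itgax, 5.82% of D/E-like and 4.63% of interferon-like cells. In Cox6a2/Rps26 cells the share was 0.513%, and in Ube2c-led cells it was 0%. The 10 genes of dissociation and cell stress, summed, stood at 10629 to 15085 CPM in D/E-like cells and at 2890 to 9923 CPM in the Mki67-led, Gpnmb/Itgax, interferon-like and Il1b/Cxcl2 cells, but at 379 to 436 CPM in Cox6a2/Rps26 and 289 to 402 CPM in Ube2c-led cells. Ribosomal protein genes took 14.2 to 15.1% of UMIs in D/E-like, 25.01 to 29.1% in Cox6a2/Rps26 and 23.1 to 25.4% in Ube2c-led cells. Oligodendrocyte markers summed to 16.0 to 54.4 CPM over all states. Neutrophil markers summed to 699 CPM in the Mki67-led cells of PRMT1Cx3cr1-KO mouse 2 and to 0.757 to 1.42 CPM in those of the other mice. Elsewhere they were highest in the Il1b/Cxcl2 cells of PRMT1FL mouse 2, at 167 CPM. Haemoglobin genes summed to 2010 and 1044 CPM in the Cox6a2/Rps26 cells of the PRMT1FL mice and were not seen in those of the PRMT1Cx3cr1-KO mice. In the other states they reached at most 103 CPM, in Gpnmb/Itgax cells of PRMT1FL mouse 1. The part of these in the members' differences was not tested. With cells thinned to 1000 UMIs the median log2 ratios were -0.70 in D/E-like, 0.59 in Cox6a2/Rps26 and 0.68 in Ube2c-led cells.

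Gene length also followed the state ratios. The members have short transcripts, with a median longest transcript of 1232 bases against 3105.5 bases over the genes tested. In the Cox6a2/Rps26 cluster the log2 ratio had a Spearman rho with transcript length of -0.64 across 6648 genes and -0.36 across the 66 members. In D/E-like cells rho was 0.43 across 7555 genes and 0.23 across members, and in Ube2c-led cells -0.52 across 6884 genes and -0.30 across members. Across members, the ratio also ran with their level, at a rho of 0.65 in Cox6a2/Rps26 and -0.59 in D/E-like cells. Genes share libraries and depth and are not independent, so these values are descriptions only.

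Related gene lists give the context. The 12 nuclear genes of complex IV over 10 CPM, of 18 listed, moved like the members, with medians of -0.74 in D/E-like, 0.55 in Cox6a2/Rps26 and 0.70 in Ube2c-led cells. The 13 mitochondrially encoded subunits had -0.18, 0.43 and 0.31, but -0.08 in Mki67-led cells, where the nuclear members had 0.25. Assembly factors, at 0.29, 0.02 and 0.08, did not follow on these plain ratios. Read against the median of all genes they stood at -0.04, 0.42 and 0.29, on the members' side but nearer to that median. The 7 regulators of mitochondrial biogenesis in D/E-like cells (0.58) went the other way, as did 6 of them in the Cox6a2/Rps26 cluster (-0.66). Against all genes these regulators stood at 0.25 and -0.26. Genes of the mitochondrial ribosome had -0.26, 0.24 and 0.52. Glycolysis genes also ran with the members, at -0.72, 0.25 and 0.55, and at 0.28 in Mki67-led cells. In D/E-like cells their medians by mouse parted by genotype, at -1.07 and -1.06 in PRMT1FL and -0.48 and -0.39 in PRMT1Cx3cr1-KO mice. This gap was not tested. The citrate cycle stood at 0.03, -0.11 and -0.00 on plain ratios. Against the median of all genes it stood at -0.31, 0.29 and 0.21, on the members' side in each. Between genotypes, edgeR called no gene in any of these lists, nor in the citrate cycle or glycolysis. Median log2 fold changes were 0.11 for complex IV, -0.11 for mitochondrially encoded subunits, 0.01 for assembly factors, -0.03 for regulators, 0.02 for the citrate cycle, -0.14 for glycolysis (5 of 18 genes positive) and 0.07 for the mitochondrial ribosome (62 of 78 positive). Cox6a2, the heart and muscle form of a complex IV subunit, was at 397 and 438 CPM in PRMT1FL and at 235 and 146 CPM in PRMT1Cx3cr1-KO mice (-1.13, SE 0.21, adjusted p = 0.0842 by edgeR).

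Genotype was compared again within each state, on cells of that state summed per mouse. In D/E-like cells edgeR called 8 members higher in PRMT1Cx3cr1-KO mice and none lower, in a fit that called 8.58% of 11546 genes higher and 7.83% lower. CPM carry edgeR's scaling factors here, as in the microglial sums. Ndufa1 was at 131 and 135 CPM in PRMT1FL and at 160 and 185 CPM in PRMT1Cx3cr1-KO mice (log2 fold change 0.38, SE 0.09, adjusted p = 0.0180 by edgeR). Ndufb2 was at 60.5 and 62.2 against 74.1 and 85.4 CPM (0.38, adjusted p = 0.0210) and Ndufs5 at 92.5 and 92.2 against 110 and 129 CPM (0.37, adjusted p = 0.0242). Each of these accessory subunits of complex I was higher in both PRMT1Cx3cr1-KO mice, with mouse 2 above mouse 1. Uqcrq was at 212 and 206 against 249 and 278 CPM (0.33, adjusted p = 0.0254) and Ndufc1 at 105 and 101 against 123 and 132 CPM (0.31, adjusted p = 0.0278), both by edgeR. Ndufs6, Ndufb7 and Uqcr10 completed the 8, at 0.36, 0.33 and 0.32. Ndufa6 ran against them at 185 and 182 against 160 and 153 CPM (-0.23, adjusted p = 0.0740 by edgeR) and did not pass. It was named after its values were seen.

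**Figure D5:**
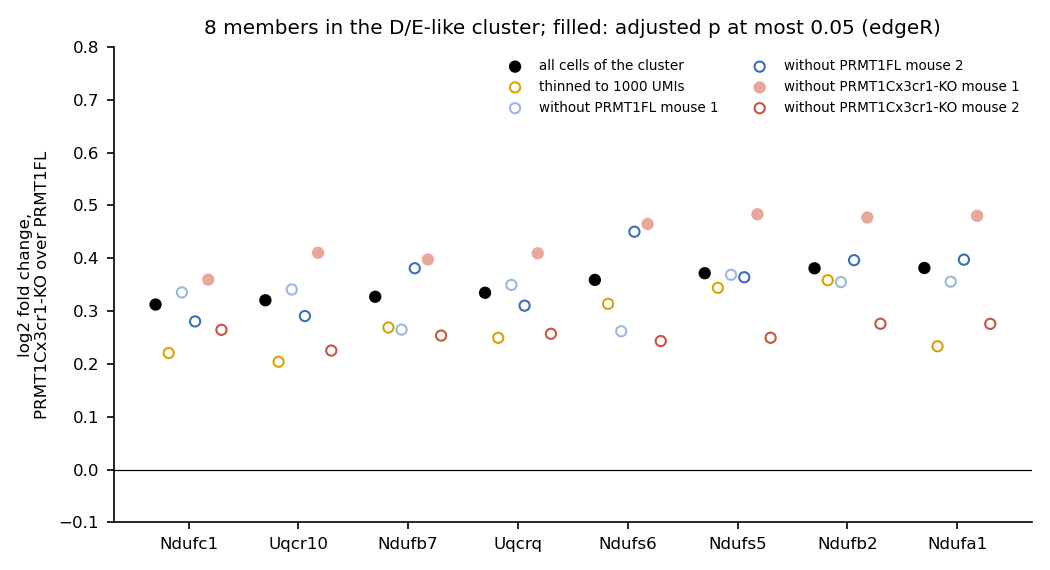
Log2 fold change of PRMT1Cx3cr1-KO over PRMT1FL (vertical axis) for the 8 members called in D/E-like cells, with all cells, with cells thinned to 1000 UMIs and without each mouse. Filled points have an adjusted p of at most 0.05 by edgeR; all points are positive, and beside the main fit only those without PRMT1Cx3cr1-KO mouse 1 are filled.

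These calls held in some alternatives and not in others. All 8 held with doublets removed (adjusted p from 0.0136 to 0.0483 by edgeR). They also held with mouse number added to the fit as a block (adjusted p from 0.00033 to 0.0028 by edgeR), where more genes were called, as given below. The part of a different mix of the study's D and E cells between genotypes was not tested. None of the 8 held without PRMT1FL mouse 1, PRMT1FL mouse 2 or PRMT1Cx3cr1-KO mouse 2 (adjusted p from 0.0738 to 0.281 by edgeR), all held without PRMT1Cx3cr1-KO mouse 1, where 21 members and 2756 genes were called against 1895 genes with all mice, and none held with cells thinned to 1000 UMIs (log2 fold changes of 0.20 to 0.36, adjusted p from 0.113 to 0.357). Thinning drops counts, and the SEs of the 8 rose from 0.083 to 0.103 in the main fit to 0.112 to 0.144. Their log2 fold changes were 0.31 to 0.38 in the main fit. A call lost on thinning therefore cannot by itself show a dependence on depth. With thinned cells the members' share in D/E-like cells had a ratio of 1.04 between genotypes, against 1.102 unthinned. Median depths of D/E-like cells were 3443.5 and 4004.5 UMIs for PRMT1FL and 3404.5 and 3939 UMIs for PRMT1Cx3cr1-KO mice.

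In the other states edgeR called no member, in fits that called 1.03% of genes in the Il1b/Cxcl2 cluster, 2.81% in Cox6a2/Rps26, 0.704% in Gpnmb/Itgax, 0.708% in the Mki67-led and 1.12% in the Ube2c-led A1-like cells, and 0.858% in the interferon-like cells. At an unadjusted p under 0.05 there were 6, 6, 15, 4, 3 and 5 members, in the same order of states, beside 16.9, 15.8, 15.6, 10.5, 8.53 and 8.78% of genes. The members' share was above that of all genes only in Gpnmb/Itgax, at 22.7%. The median log2 fold change of the members was positive in each of the 7 states, from 0.06 in Cox6a2/Rps26 to 0.13 in D/E-like cells.

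Whether the genotype difference itself differed between a state and the other microglia was tested for the 4 states named from markers. It was not tested for the Il1b/Cxcl2, Cox6a2/Rps26 and Gpnmb/Itgax clusters. In D/E-like cells edgeR called 5 members, of 66, in a fit that called 15.3% of genes. The difference of log2 fold changes was positive for Ndufa1 (0.43, SE 0.08, adjusted p = 0.00028), Ndufs5 (0.27, adjusted p = 0.0187), Ndufv3 (0.25, adjusted p = 0.0216) and Uqcrq (0.22, adjusted p = 0.0390), and negative for Ndufs1 (-0.38, adjusted p = 0.0200), all by edgeR. Ndufs1 was at 25.6 and 27.9 CPM in PRMT1FL and at 21.1 and 23.0 CPM in PRMT1Cx3cr1-KO D/E-like cells. None of these held with cells thinned to 1000 UMIs, where Ndufa1 had 0.19 (adjusted p = 0.454 by edgeR). With each mouse left out in turn, Ndufa1 stayed past the threshold. Ndufs5 and Uqcrq did not pass without PRMT1FL mouse 1, PRMT1FL mouse 2 or PRMT1Cx3cr1-KO mouse 2 (adjusted p from 0.110 to 0.370 by edgeR), Ndufv3 not without PRMT1FL mouse 1 or PRMT1Cx3cr1-KO mouse 2, and Ndufs1 not without PRMT1FL mouse 2 or PRMT1Cx3cr1-KO mouse 2. No member was called for the Mki67-led (1.16% of genes called), Ube2c-led (0.445%) or interferon-like cells (0.172%), where 3 members each had an unadjusted p under 0.05, beside 9.96, 6.04 and 5.28% of genes.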

How the data were processed

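Libraries were made with the 10x Genomics 3′ v2 kit. The authors deposited raw UMI counts per gene and barcode for each mouse, and the submitters' processing notes name Cell Ranger 3.1.0, Seurat 3.2.0, Scanpy 1.5.2 and the build mm10. Kept were 40869 barcodes in which 200 to 6000 genes were detected and mitochondrial transcripts did not exceed 10%. Cells were clustered with scanpy 1.11.5 in Python 3.11.15 (counts scaled to 10000, 2000 variable genes, 20 principal components, 15 neighbours, resolution 0.5). Left out were the members and 1534 genes picked by adjusted p or by the size of the log2 fold change between genotypes over all cells. Doublets were marked by Scrublet score, taking the top scores at 0.8% per 1000 cells because its automatic threshold marked almost none, and were kept except in an alternative.

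Counts were summed per mouse, and per state where every mouse had at least 50 cells, and tested with edgeR 4.0.16 (quasi-likelihood test, TMM scaling, R 4.3.3), with p-values adjusted by Benjamini-Hochberg over all genes tested and called at 0.05. DESeq2 1.42.0 was an alternative. The replicates are 2 mice per genotype, with 1 library each. The genotype-by-state test used 8 sums, 2 per mouse. State ratios used plain CPM with a pseudocount of 0.5 CPM over genes of at least 10 CPM on average. Thinning to 1000 UMIs left out 1576 of 39597 microglia. The fits were also run on simulated data, with planted changes larger than those of the tested members in the main fits. That run does not show how changes of the members' size are found.

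The members and lists were chosen with earlier results of these data known. Named between genotypes were called members, the 3 of lowest p and the 1 of highest level in each complex, and all of complex II. Named in states were the 2 members at each end of the ratios with the same side in all 4 mice. Ndufa1, Ndufc1, the Ndufa4 pair, the c ring and Prmt1 were set by name. Of the 67 members, 12 had no promoter entry in the RefSeq table used. Alternatives covered scaling, filters, doublets, depth, clustering, cell makeup and each mouse left out.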

Additional observations from a re-analysis of the deposited data

Results flagged for a closer look

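In D/E-like cells the genotype difference of 5 members differed from that in the other microglia by edgeR's interaction test, with the differences of log2 fold changes given as D/E-like minus other microglia. The same fit called 2063 of 13503 genes, or 15.3%, so 5 of 66 members is fewer than that share would give. Ndufa1 had 0.43: its log2 ratio of D/E-like to other microglia was -1.70 in PRMT1FL and -1.27 in PRMT1Cx3cr1-KO mice. The log2 ratios in this section carry edgeR's scaling factors, so they differ from the state ratios on plain UMI totals given earlier. Ndufs5 had 0.27, Ndufv3 0.25 and Uqcrq 0.22, and each of these stood less far below the other microglia in PRMT1Cx3cr1-KO than in PRMT1FL mice. Ndufs1 went the other way at -0.38, with log2 ratios of -0.05 in PRMT1FL and -0.43 in PRMT1Cx3cr1-KO mice. With cells thinned to 1000 UMIs the differences were 0.19, 0.21, -0.00, 0.08 and 0.01 for Ndufa1, Ndufs5, Ndufv3, Uqcrq and Ndufs1, and none passed.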

How the results depend on the processing

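Between genotypes, the members' median log2 fold change was 0.16 with plain library sums, and 0.031 to 0.144 with each mouse left out. The count of members called was 0 to 13 with each mouse left out, 3 with no filter on low counts (1631 genes called) and 1 with all cells (749 genes). The labels and the study's methods name no pairing of mice by number. Deviations from the group means correlated at 0.106 over 13828 genes in same-numbered pairs. Mouse 2 was deeper in both genotypes, at medians of 6066 and 6923 UMIs per cell in PRMT1FL and 6232.5 and 6959.5 in PRMT1Cx3cr1-KO mice. Whether mice of the same number share a batch was not tested. With the replicate block, which adds mouse number to the fit, 1 member was called in the microglial sums (370 of 13828 genes). In D/E-like cells it was 21 (2791 of 11546 genes, against 1895 with no block) and in Gpnmb/Itgax 3 (460 of 12508 genes, against 88). In Il1b/Cxcl2, Cox6a2/Rps26 and Mki67-led cells it was 1 each (239 of 12192, 535 of 9974 and 161 of 10741 genes). The block raised the calls over all genes too, so these counts are not read as a result about the members.

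Uncalled members changed sign. With plain library sums the log2 fold changes were 0.032 for Atp5g2, 0.055 for Ndufa1, 0.074 for Sdha, 0.014 for Sdhd, 0.038 for Uqcrc2 and 0.049 for Uqcrh. With all cells they were 0.0017 for Atp5g2, 0.023 for Ndufa1, 0.029 for Sdha and 0.016 for Uqcrh, with equal makeup 0.021 for Ndufa1 and 0.0083 for Uqcrh, and with thinned cells 0.078 for Ndufa1, -0.049 for Ndufs3 and 0.047 for Sdha. Sdha was at 0.0040 with DESeq2 size factors and with DESeq2, 0.0061 with no filter and 0.0043 without doublets. With each mouse left out, the values ran from -0.039 to 0.115 for Atp5b, -0.045 to 0.092 for Atp5e, -0.0088 to 0.198 for Atp5g1, -0.089 to 0.0042 for Atp5g2, -0.044 to 0.0022 for Ndufa1, -0.041 to 0.161 for Ndufs1, -0.0046 to 0.090 for Ndufs3, -0.018 to 0.073 for Ndufv1, -0.029 to 0.033 for Sdha, -0.045 to 0.12 for Sdhc, -0.075 to 0.0065 for Uqcrc2 and -0.067 to 0.016 for Uqcrh.

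State medians with cells thinned to 1000 UMIs were -0.70 in D/E-like, -0.13 in Il1b/Cxcl2, 0.59 in Cox6a2/Rps26, -0.038 in Gpnmb/Itgax, 0.33 in Mki67-led, 0.68 in Ube2c-led and -0.16 in interferon-like cells. With TMM factors, chosen after seeing the data like the choice of totals and the alternatives within states, they were -0.95, -0.014, 1.03, 0.044, 0.14, 0.85 and -0.053 in that order, beside all-gene medians of -0.06, 0.03, 0.19, 0.01, -0.02, 0.04 and -0.03. Without mitochondrial and ribosomal protein genes in the totals they were -0.69 in D/E-like, 0.61 in Cox6a2/Rps26, 0.22 in Mki67-led and 0.68 in Ube2c-led cells. With members allowed into clustering (0 of them were among the variable genes, so no member entered it) they were -0.61 in D/E-like, -0.20 in Il1b/Cxcl2 and 0.073 in Gpnmb/Itgax, with another seed -0.64, -0.14 and -0.026, without doublets -0.63 in D/E-like, -0.12 in Il1b/Cxcl2 and 0.28 in Mki67-led, and at a higher resolution -0.49 in D/E-like cells. The direction turned only in Gpnmb/Itgax, and the cause was not tested.

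Within states, members called with each mouse left out were 0 to 21 in D/E-like, 0 to 11 in Il1b/Cxcl2 and in Gpnmb/Itgax, 0 to 2 in Mki67-led and 0 to 1 in Cox6a2/Rps26 and interferon-like cells, the highest counts without PRMT1Cx3cr1-KO mouse 1, where 2756, 1303 and 1727 genes were called in D/E-like, Il1b/Cxcl2 and Gpnmb/Itgax cells. Thinning gave 0 in D/E-like and 1 in Gpnmb/Itgax, and plain sums 2 in Cox6a2/Rps26. The share of all genes called in these fits is not given, so these counts are not read as a result about the members. For genotype by state in D/E-like cells the count was 1 to 8 with each mouse left out. It was 2 with members kept, 3 with another seed and 1 with thinned cells. The 1 with thinned cells was not among the members called in the main fit. That main fit called 15.3% of genes. The share called in these alternatives is not given, so these counts too are not read as a result about the members. Depth limited Ndufa4l2, with 3 to 7 UMIs per mouse. Where a mouse was left out, the lone mouse of its genotype was assumed to vary like the others.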
